A study of Mus musculus with 2 samples.

Results

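The proteasome genes of the mouse heart were examined on both arrays of a study of WRN-K577M. They were taken as the genes whose symbol begins with Psma, Psmb, Psmc, Psmd, Psme, Psmf or Psmg and whose RefSeq accession is carried by a non-control probe. There were 50 such genes, read by 62 probes, among 21368 named genes on the array. The reference table lists 57 genes with these symbols; the 7 without a probe by accession are 6 pseudogenes and Psme2. Cy3-labelled heart RNA was read on 1-colour Agilent arrays, with 1 array per group. The control heart was of C57BL6 background. The other sample came from a B6.Cg line with the transgene designated Tg (CAG-WRN*K577M) 5025Wcl/Mmmh. It encodes WRN-K577M, a WRN protein with an amino acid exchanged in the helicase domain, and its CAG promoter is active in most tissues, so expression is not limited to heart muscle. Age, sex and diet are not given in the sources used here, nor is the number of hearts in a sample, nor the meaning of the letters ND in both sample titles. The submitters' stated question was which signalling causes remodelling of the heart.

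The proteasome degrades proteins that carry a chain of ubiquitin. Its 20S core is a barrel of alpha rings, which form the gate, and beta rings, which hold the catalytic sites; the 19S regulatory particle recognises, unfolds and feeds in the substrate. Under interferon the catalytic beta subunits can be replaced by immune forms that favour peptides for MHC class I, and other caps such as the PA28 complex can take the place of the 19S particle. Heart muscle relies on the proteasome for the turnover of sarcomere and signalling proteins.

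Levels are log2 processed signals from which the 75th percentile of all non-control probes of that array was subtracted, so that a level of 0 is the signal of that percentile. A positive log2 ratio means a higher level in WRN-K577M than in the control. A gene is called measured when a probe was well above background on both arrays. This held for 48 of the 50 genes. On neither array did the other two reach that mark, Psma8, a testis form of an alpha subunit, and Psmb11, the catalytic subunit of the thymus, and they have no ratio. The label heart was borne out by cardiomyocyte markers, all 8 of which were measured, with levels from 3.25 (Nkx2-5 in WRN-K577M) to 10.1 (Actc1 in WRN-K577M). The share of probes well above background was 55.2% on the control array and 52.9% on the other. Many markers of other tissue, though not all, differed far more than any proteasome gene did. The atrial genes Sln, Myl7 and Myl4 were 678-fold, 168-fold and 139-fold lower in the WRN-K577M sample, and Nppa was 2.08-fold lower. Of 5 lung epithelial markers, Scgb1a1 was 221-fold lower and the other 4 were above background in the control only. Of the erythroid markers 3 of 4 were measured, all at least 2-fold lower, with a median log2 ratio of -2.84. Of 6 fibroblast markers Col3a1 (-2.29), Col1a1 (-1.73) and Lum (-1.51) were at least 2-fold lower. The other fibroblast markers, Pdgfra (-0.18), Dcn (-0.059) and Tcf21 (0.25), were not. All 6 endothelial markers were measured, none differed by 1.5-fold, and their median log2 ratio was -0.096. The part of these tissues and cells in the proteasome values was not tested. A single array stands for each genotype, so there is no replicate check and no test, and genotype and other differences between the samples cannot be told apart.

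No measured proteasome gene differed by 1.5-fold. The log2 ratios of the 48 genes ran from -0.36 (Psmd14) to 0.51 (Psmd4), with a median of 0.074. Over all 14003 measured genes the median was 0.020. No member was at least 1.5-fold higher, against 6.76% of all measured genes, and none was at least 1.5-fold lower, against 9.16%. At 2-fold both counts were likewise 0, against 1.94% and 3.46%. A log2 ratio above 0 was found for 31 of the 48 members (64.6%), against 52.4% of all measured genes; after normexp background correction it was found for 27, or 56.2%, against 57.4%. The SD of the log2 ratio was 0.20 over the members and 0.49 over the 10599 measured genes in the members' range of mean level. Members thus spread less from one another than genes of like level did.

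Measurement error was read from repeated spots and from different probes of one gene. Probes printed 10 times gave an SD of the log2 ratio between spots of 0.13 over 269 probes, and of 0.065 over the 173 of them with a mean level of 0 or higher. Among all 3650 genes with more than 1 measured probe, the 2 brightest probes differed by a median of 0.14 in their log2 ratio. For the 11 proteasome genes with more than 1 measured probe, the probes of a gene never differed by more than 0.28. The error that the scanner software gives for a ratio was 0.20 to 0.21 on the log2 scale for the members. All of these cover measurement and none covers differences between animals.

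A finer threshold of 2 spot SD, which is 1.19-fold, was chosen after the values were seen. By it 10 members were higher in WRN-K577M (20.8%, against 23.6% of all measured genes) and 4 were lower (8.33%, against 22.7%). The count of higher members among the 48 depended on the processing. It was 4 with cyclic loess, against 19.01% of all measured genes, and 5 with normexp, against 20.3%. With quantile normalization it was 5, against 22.2%, with the deposited matrix 5, against 19.2%, and with median scaling 6, against 19.9%. Under each of these settings the members' share was thus below that of all genes, and by more than as reported. The count of lower members stayed between 3 and 5, against 16.8% (normexp) to 26.7% (deposited matrix) of all measured genes. Of the 10 genes higher as reported 7 belong to the 19S particle (Psmd4, Psmd2, Psmc1, Psmd11, Psmc3, Psmd1 and Psmd7), to which 17 of the 48 measured members belong. Psma3 and Psma7 belong to the alpha ring, and Psme3 to the activators. The lower genes were Psmd14 of the 19S particle, the activators Psme4 and Psme1, and the assembly factor Psmg1. By their other probes Psme4 (-0.22) and Psmg1 (-0.069) did not pass this threshold. No catalytic gene, constitutive or immune, passed it in either direction.

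**Figure D1:**
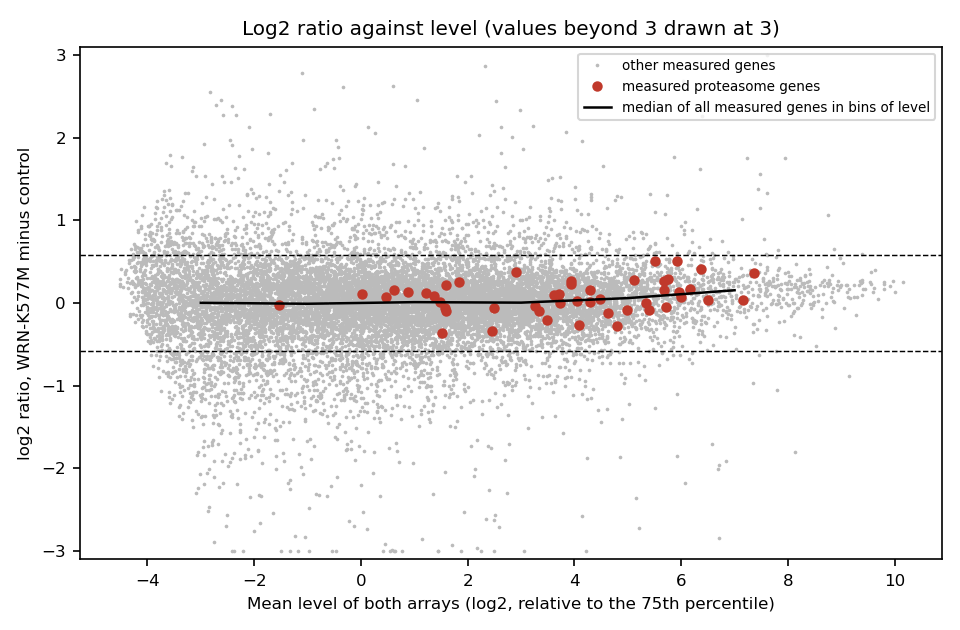
Log2 ratio (vertical axis) against the mean level of both arrays (horizontal axis, log2) for every measured gene, with the 48 measured proteasome genes in red, the 1.5-fold limits as dashed lines and the median of all genes in bins of level as a black line. Every red point lies between the dashed lines, from -0.36 to 0.51.

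Among all genes the median ratio was somewhat higher at high levels, and the members' medians lay close to it except between levels 0 and 2. Among genes with a mean level from 6 to 8 the median log2 ratio was 0.15 over all 389 genes and 0.17 over the 5 members there. From 4 to 6 it was 0.060 over 1332 genes and 0.050 over 19 members, and from 2 to 4 it was 0.0048 over 2845 genes and -0.0015 over 11 members. From 0 to 2 it was 0.011 over 3659 genes and 0.098 over 12 members. The remaining member, Psmc3ip, was dimmer.

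**Figure D2:**
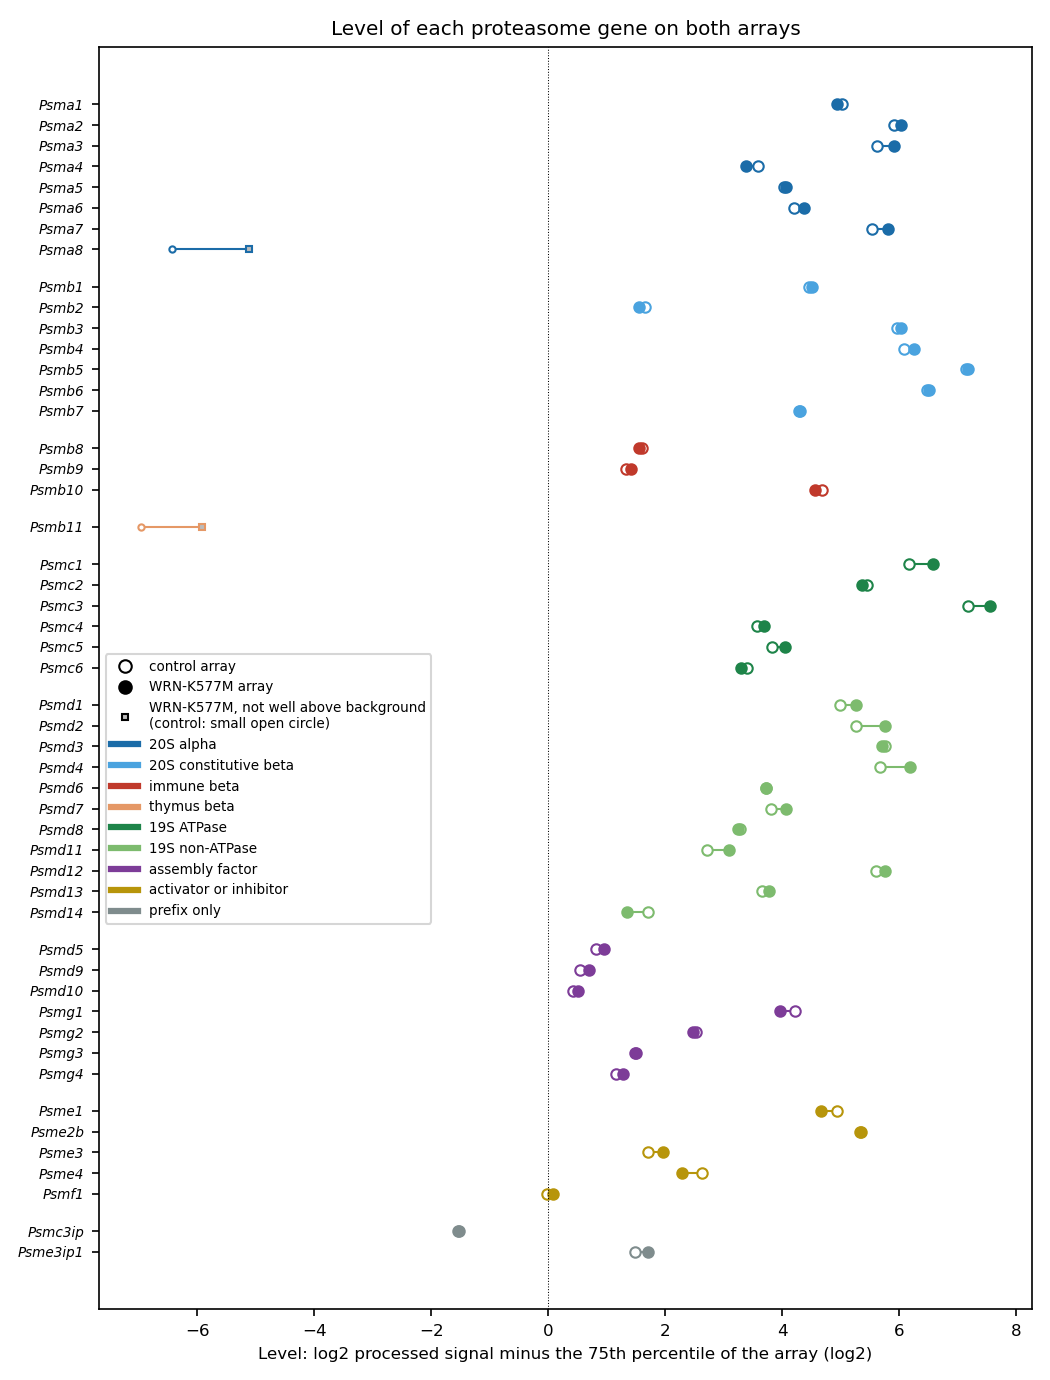
Level of each proteasome gene (log2, relative to the array's 75th percentile) on the control array (open circle) and the WRN-K577M array (filled circle), grouped by role. The circles of a measured gene lie within 0.51 of each other; Psma8 and Psmb11, drawn small, were not well above background, and levels of different genes are not comparable because each comes from its own probe.

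The alpha subunits build the outer rings of the core. All 7 alpha genes expressed outside the testis were measured, with a median log2 ratio of 0.13 that stayed above 0 under all 9 alternative ways of processing (0.028 to 0.15). Psma3 read 5.61 in the control and 5.90 in WRN-K577M, a log2 ratio of 0.29, the highest of the group. Psma7 followed with 0.27, Psma6 with 0.16 and Psma2 with 0.13. Psma4 had the lowest ratio, with levels of 3.59 and 3.38, and its probes gave near-identical log2 ratios of -0.21 and -0.21. Psma1 (-0.081) and Psma5 (0.026) lay nearer 0. The highest and lowest differed from each other by more than the spot error.

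The constitutive beta genes were the most even group. The median log2 ratio of all 7 was 0.033 and their SD 0.079; with cyclic loess, quantile normalization, median scaling and the deposited matrix the median lay just below 0. The catalytic genes among them were near equal on both arrays. Psmb6, the caspase-like beta 1 subunit, read 6.48 in the control and 6.51 in WRN-K577M. Psmb7, the trypsin-like beta 2 subunit, had 4.28 and 4.30. Psmb5, the chymotrypsin-like beta 5 subunit and the main target of proteasome inhibitor drugs, had 7.13 and 7.17 by its brighter probe, and its probes gave log2 ratios of 0.033 and 0.031. The ratios of these 3 genes thus lay between 0.018 and 0.033, within the spot SD of 0.065 for bright probes. Of the structural beta genes, Psmb4 had the highest log2 ratio (0.17), Psmb3 (0.069) and Psmb1 (0.050) were intermediate, and Psmb2 had the lowest (-0.094).

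The immune beta genes also lay near 0. Psmb9, the immune beta 1 subunit, read 1.32 in the control and 1.41 in WRN-K577M, a log2 ratio of 0.088. Psmb10, the immune beta 2 subunit, had 4.68 and 4.56, a log2 ratio of -0.12. Psmb8, the immune beta 5 subunit, had 1.61 and 1.55, a log2 ratio of -0.054. Their median was -0.054, and it stayed below 0 under all 9 alternatives (-0.10 to -0.031). All 3 lay within the spot SD of 0.13, while Psmb9 and Psmb10 lay outside the 0.065 of brighter probes and within the software's error of 0.20.

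Set against their constitutive partners, the immune genes differed little and not in 1 direction. The log2 ratio of Psmb9 exceeded that of Psmb6 by 0.057. The log2 ratio of Psmb10 minus that of Psmb7 was -0.14, and that of Psmb8 minus that of Psmb5 was -0.087. The last difference was 0.089 after normexp background correction, 0.021 with quantile normalization and 0.0079 with cyclic loess, so its sign was not stable. The software's error of such a difference is 0.29, larger than each of them. That error is near constant, at 0.20 to 0.21 for the ratio of any member, and larger than the spot SD of 0.13. It is thus not a measured limit of detection. With 1 array per group, a difference between immune and constitutive subunits of this size was not tested.

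**Figure D3:**
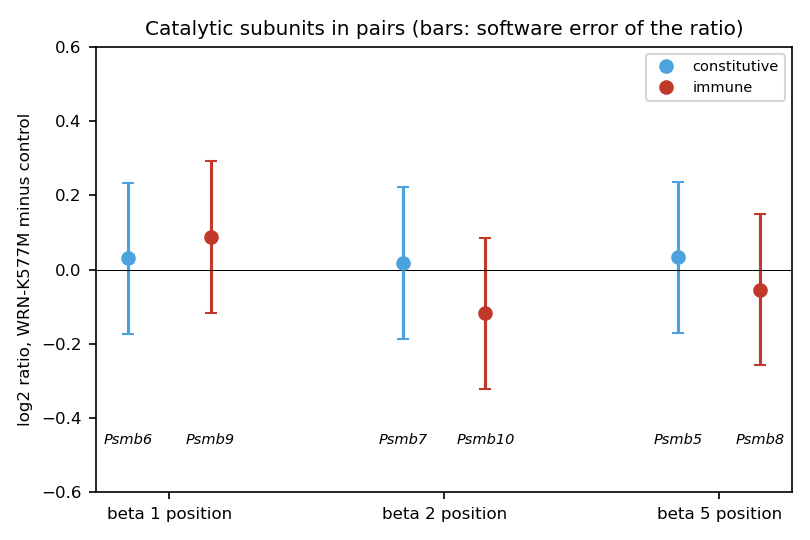
Log2 ratio (vertical axis) of each constitutive catalytic subunit (blue) and of the immune subunit that takes its position (red), with the software's error of the ratio as bars, 1 array per group. All 6 ratios lie between -0.12 and 0.088 and all bars cross 0. Each bar reaches 0.20 to either side for all 6 genes, so any ratio nearer to 0 than this would cross it.

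Markers of macrophages and dendritic cells, which like other immune cells are known to express the immune subunits, were lower in the WRN-K577M sample. All 10 macrophage markers were measured and below 0 by their brightest probe, with a median log2 ratio of -0.80. Their summed signal was 45.0 times the 75th percentile signal in the control and 26.8 times in WRN-K577M. Csf1r, with the largest signal among them, had -0.72 by its brightest probe and 0.19 by another, so its probes disagree. Of the T and NK cell markers, 5 of 10 were measured and 4 of these lay below 0, with summed signals of 6.998 and 6.571, and neither array had Cd8a, Gzmb or Klrb1c above background. Of the dendritic cell markers 4 of 6 were measured, all below 0, with summed signals of 0.93 and 0.45, and Xcr1 was not above background. Of the B cell markers 2 of 6 were measured, with summed signals of 1.52 and 1.61, and Cd79a and Pax5 were not above background. Of the neutrophil markers 2 of 6 were measured (S100a8 and S100a9), with summed signals of 40.0 and 1.27, and 3 others were above background in the control only. The part of these cells in the levels of the immune subunits was not tested. In RNA of whole tissue, fewer cells of a type and less RNA per cell cannot be told apart.

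The genes that work with the immune subunits differed little. All 11 listed antigen processing genes were measured and none reached 1.5-fold, a count near the background given above. A ratio above 0 was found for 3 of them, against 52.4% of all measured genes, with a median log2 ratio of -0.076. The peptide transporter genes Tap1 (-0.050) and Tap2 (-0.036), which neighbour Psmb8 and Psmb9 in the MHC on chromosome 17, lay within the spot SD of 0.13. B2m, the light chain of MHC class I, had levels of 5.49 and 5.25 and a log2 ratio of -0.23, H2-D1 had -0.15, and the chaperones Calr and Pdia3 had -0.30 and -0.14. Among 14 interferon regulators, all measured, 10 lay above 0, against the same 52.4%, and the median was 0.14. The activators of immune subunit transcription Irf1 (0.077) and Nlrc5 (0.021) were near equal. Stat3, a cytokine-activated factor, had levels of 4.62 and 5.43 and alone among them passed 1.5-fold (log2 ratio 0.81), with 0.66 by its other probe. Irf7 (0.45), Ciita (0.44) and Jak1 (0.43) came next in size, followed in the other direction by Irf8 (-0.41) and Ifngr2 (-0.39). Ciita was dim, with levels of -4.46 and -4.02, and the software's error of its ratio was 0.44.

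Upstream sequences of these catalytic genes are shown because the pairs are known to answer to different factors. Each run is the 250 bases before the RefSeq start, 5′ to 3′, in build GRCm38.p6, and RefSeq is the source. Capitals mark matches on either strand to TGACNNNGC, the core of the antioxidant response element bound by Nfe2l1 and Nfe2l2, to CCAAT, bound by NF-Y, to the core of the interferon-stimulated response element (GAAA, any 2 bases, GAAA), and to TTCNNNGAA, the gamma-activated site of interferon-responsive promoters. No marked match in the runs shown overlaps another.
Psmb5 (chr14:54617996-54618245, minus strand): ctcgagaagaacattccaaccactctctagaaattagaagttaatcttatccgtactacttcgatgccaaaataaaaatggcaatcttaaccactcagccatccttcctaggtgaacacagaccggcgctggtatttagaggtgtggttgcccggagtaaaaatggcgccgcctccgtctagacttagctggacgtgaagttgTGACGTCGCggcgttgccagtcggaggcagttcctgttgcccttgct
Psmb6 (chr11:70525107-70525356, plus strand): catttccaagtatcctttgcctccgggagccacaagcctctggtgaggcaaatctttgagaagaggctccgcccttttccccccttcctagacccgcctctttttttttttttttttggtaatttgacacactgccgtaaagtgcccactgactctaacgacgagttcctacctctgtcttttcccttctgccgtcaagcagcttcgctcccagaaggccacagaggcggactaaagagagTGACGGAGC
Psmb8 (chr17:34197945-34198194, plus strand): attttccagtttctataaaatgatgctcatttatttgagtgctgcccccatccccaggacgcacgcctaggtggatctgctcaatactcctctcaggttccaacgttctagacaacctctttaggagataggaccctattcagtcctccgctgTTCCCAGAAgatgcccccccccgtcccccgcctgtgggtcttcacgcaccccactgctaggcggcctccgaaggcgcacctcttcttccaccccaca
Psmb9 (chr17:34187331-34187580, minus strand): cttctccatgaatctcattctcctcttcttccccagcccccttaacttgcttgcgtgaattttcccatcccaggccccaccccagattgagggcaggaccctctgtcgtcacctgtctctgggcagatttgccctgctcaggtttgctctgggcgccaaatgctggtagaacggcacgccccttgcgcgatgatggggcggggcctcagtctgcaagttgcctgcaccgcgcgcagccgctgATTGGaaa
The constitutive genes Psmb5 and Psmb6 each held 1 match to TGACNNNGC in this window, and the immune genes none. Psmb8 held 1 match to TTCNNNGAA, and Psmb9 held 1 CCAAT match in a window that overlaps the window of the divergent gene Tap1 by 225 bases. No match was found for Psmb10, and no window of Psmb7 was used here, so this sets 2 constitutive genes against 3 immune genes. The log2 ratios of all these genes lay within 0.12 of 0, whichever matches their windows held.

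Windows were found in the table for 42 of the 50 genes, 45 windows in all. Matches to TGACNNNGC occurred in 11.1% of these windows and in 10.2% of all 32851 windows of this length. The 5 genes that held one were Psmb5, Psmb6, Psmc6, Psmd9 and Psmd12, with log2 ratios from -0.098 (Psmc6) to 0.16 (Psmd9). CCAAT occurred in 35.6% of the members' windows and 33.8% of all windows, the interferon-stimulated core in 6.67% and 2.98%, and TTCNNNGAA in 4.44% and 7.02%. A match is a run of letters and not evidence of binding.

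The 19S genes had the widest range of ratios, and their SD over genes was 0.24, against 0.25 for the activators and 0.18 for the alpha genes. The ATPases, which form the ring that unfolds substrates, had a median log2 ratio of 0.17 over 6 genes, and the non-ATPase subunits had 0.16 over 11; both stayed above 0 under all 9 alternatives. Psmc1 read 6.16 in the control and 6.57 in WRN-K577M, and its probes gave log2 ratios of 0.41 and 0.37. Psmc3 had 7.18 and 7.54, and its probes gave 0.36 and 0.45. The separate probes of both genes thus lay on the same side and apart from 0 by more than the spot error. Psmc5 had a ratio of 0.23 and Psmc4 of 0.10. Psmc2 lay below 0 by both of its probes (-0.088 and -0.094), and Psmc6 was lowest with -0.098. The 6 ATPases are built in equal number into each ring, yet their ratios ran from -0.098 to 0.41.

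**Figure D4:**
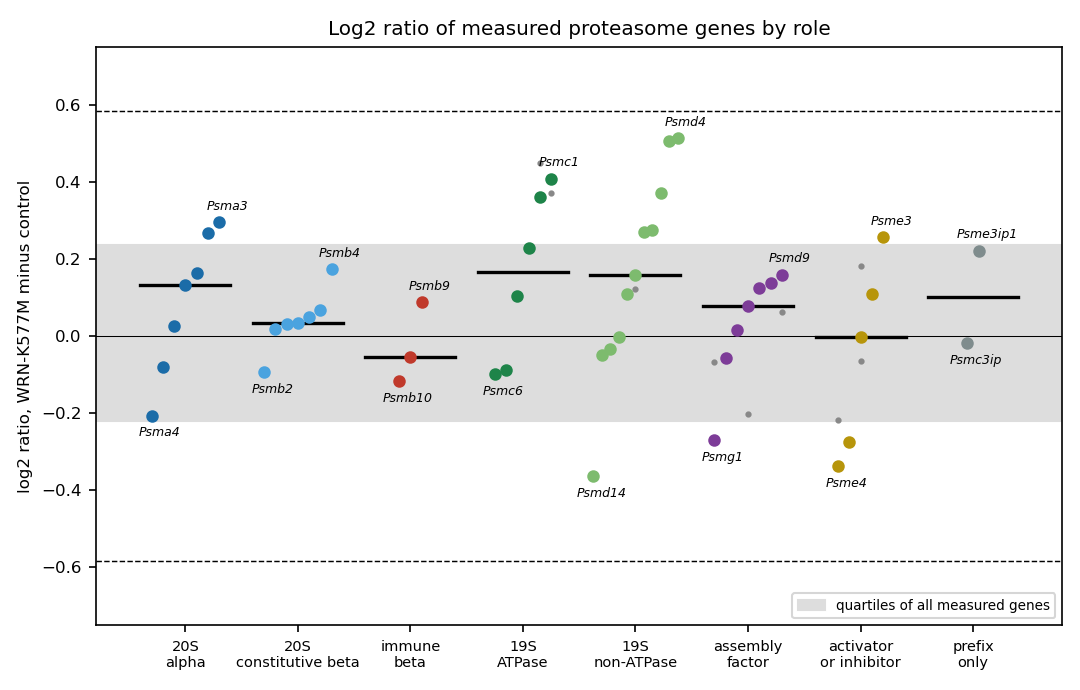
Log2 ratio (vertical axis) of each measured proteasome gene by role, with coloured points for the brightest probe, small grey points for further probes, black bars for the median of a role, the grey band for the quartiles of all measured genes and dashed lines at 1.5-fold. The 19S genes span the widest range, from -0.36 (Psmd14) to 0.51 (Psmd4), and the constitutive beta genes lie close to 0.

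Among the non-ATPase subunits, Psmd4, a receptor for ubiquitin chains, read 5.67 in the control and 6.18 in WRN-K577M. Its log2 ratio of 0.51 (1.43-fold) was the highest of all members and was 0.36 after normexp. Psmd2, the large scaffold of the base, had 5.25 and 5.76, a log2 ratio of 0.51 (1.42-fold). Each rests on 1 probe. Psmd11, a lid subunit that contacts the core, had 2.71 and 3.08 (0.37), Psmd1, the other large scaffold, had a ratio of 0.28, and Psmd7, the partner of the deubiquitinase, had 0.27. Psmd12 had log2 ratios of 0.16 and 0.12 by its probes, and Psmd13 had 0.11. Psmd6 (-0.0015), Psmd8 (-0.033) and Psmd3 (-0.049) were near equal on both arrays. Psmd14, the deubiquitinase that removes the ubiquitin chain, stood apart at the other end, with levels of 1.70 and 1.34 and a log2 ratio of -0.36 (1.29-fold lower). It also rests on 1 probe, and its ratio stayed between -0.42 and -0.36 under all 9 alternatives.

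Grouped by structure, the 9 measured base genes (the ATPases with Psmd1, Psmd2 and Psmd4) had a median log2 ratio of 0.28 and the 8 lid genes one of 0.053. This grouping was made after the values were seen. The base median was 0.15 after normexp and 0.19 with cyclic loess, while the lid median was -0.014 and -0.013 there. The groups overlapped, since Psmc2 and Psmc6 of the base lay below 0 and Psmd11 of the lid reached 0.37. The receptor Adrm1 and the small lid subunit Sem1, which carry other symbols, are not in these medians. Their log2 ratios were -0.18 and 0.33, so Adrm1 lay below both medians and Sem1 above both.

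The upstream windows of the subunits with the highest and lowest ratio, which lie at opposite ends of the 19S range, are shown in the same form.
Psmd4 (chr3:95042615-95042864, minus strand): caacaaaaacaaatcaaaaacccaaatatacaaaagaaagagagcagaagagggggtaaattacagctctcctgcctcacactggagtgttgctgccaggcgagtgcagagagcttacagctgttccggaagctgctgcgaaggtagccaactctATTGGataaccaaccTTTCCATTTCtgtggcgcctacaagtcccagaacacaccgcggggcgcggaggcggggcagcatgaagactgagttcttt
Psmd14 (chr2:61711444-61711693, plus strand): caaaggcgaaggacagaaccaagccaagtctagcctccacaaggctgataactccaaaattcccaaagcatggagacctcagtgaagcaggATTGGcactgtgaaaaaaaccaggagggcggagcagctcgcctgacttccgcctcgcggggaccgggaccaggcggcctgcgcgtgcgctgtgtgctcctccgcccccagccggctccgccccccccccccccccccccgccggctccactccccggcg
Both hold 1 CCAAT match. Psmd4 also holds 1 match to the interferon-stimulated core, as Psmb3 and Psmd9 do, whose log2 ratios were 0.069 and 0.16. Psmd2, with a ratio near that of Psmd4, held no match to any of the 4 motifs.

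Factors that assemble the proteasome and do not stay in it lay near 0 apart from Psmg1. Over Psmg1, Psmg2, Psmg3 and Psmg4, which build the alpha ring, and Psmd5, Psmd9 and Psmd10, which build the ATPase ring, the median log2 ratio was 0.079, and it stayed above 0 under all 9 alternatives. Psmg1 was lowest, with levels of 4.22 and 3.95 and log2 ratios of -0.27 and -0.069 by its probes. Psmg2 (-0.058), its partner, and Psmg3 (0.014) lay nearer 0, and Psmg4 had 0.12. Psmd9 was highest with 0.16, and with 0.061 by its other probe, and Psmd5 had 0.14. Psmd10, also known as gankyrin, had 0.079 and -0.20 by its probes, the widest disagreement among members. Pomp, the maturation factor of the beta ring, had levels of 4.75 and 4.86 (0.12), and 0.24 by its other probe.

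The activators that cap the core in place of the 19S particle differed in sign. Psme1, a PA28 subunit induced by interferon, was printed at 10 spots, of which 8 were free of outlier marks. Its level over these spots was 4.88 at the lowest, 4.92 at the median and 5.002 at the highest in the control. In the WRN-K577M sample these were 4.61, 4.66 and 4.70. The spots of the arrays did not overlap, and the log2 ratio was -0.27 ± 0.040 (SD, 8 spots of 1 probe on 1 array per group), a difference of 1.21-fold. Its partner Psme2 was not analysed here. Psme2b, a closely related copy whose probes may also read Psme2, had log2 ratios of -0.0035, -0.064 and 0.18 by its 3 probes. Psme3, which forms the nuclear PA28 complex alone, had levels of 1.70 and 1.96 (0.26). Psme4, the PA200 activator, had 2.63 and 2.29, and its probes gave -0.34 and -0.22. Psmf1, an inhibitor of the core in vitro, had -0.030 and 0.079 (0.11). The median of these 5 genes was -0.0035 and turned to 0.039 when the probes of a gene were averaged.

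The rule also took in Psmc3ip, a recombination protein named for binding Psmc3, with a log2 ratio of -0.019, and Psme3ip1, named for binding Psme3, with 0.22. Neither is a proteasome subunit, and without them the median of the remaining 46 members was still 0.074.

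Of 12 listed genes of the Nfe2l1 and Nfe2l2 axis, which regulates proteasome transcription, 11 were measured. Of these, 10 lay above 0, against 52.4% of all measured genes, and the median log2 ratio was 0.25. At least 2-fold higher were 3 of them, against 1.94% of all measured genes, and these differed more than any subunit did. The other measured genes of the list lay within the range of the subunits. The list was chosen with earlier results of these data known. Ddi2, the protease that cleaves Nfe2l1 into its active form when the proteasome is inhibited, had levels of 0.20 and 1.38 and was 2.26-fold higher. Its brighter probe gave a log2 ratio of 1.18 and its other probe a higher one, and the ratio stayed at or above 1.00 under all 9 alternatives. The small Maf proteins that pair with Nfe2l1 and Nfe2l2 on DNA followed, Mafk with levels of 1.19 and 2.20 (1.01) and Maff with 0.57 and 1.57 (1.00), while Mafg had 0.34. Mafk and Maff stood at the threshold and were 0.95 and 0.73 after normexp and 0.98 each with cyclic loess. Nfe2l1 itself had levels of 0.31 and 0.56 (0.25), and Nfe2l2 had 3.71 and 3.90 (0.19), both within the range of the subunits. Nfe2l3 was not well above background.

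Among other components and partners, 18 of 22 listed symbols were measured, 13 lay above 0 and the median was 0.068. Ubqln2, a shuttle for ubiquitinated proteins, alone passed 1.5-fold (0.65). Zfand5, a proteasome-binding protein, had 0.57 by its brightest probe and -1.12 by another, so its probes disagree. Uchl5, a deubiquitinase of the 19S particle, had 0.43 and Txnl1, a thioredoxin of the particle, 0.39. All 12 ubiquitin and conjugation genes were measured, with a median of 0.043. The ubiquitin genes Ubb (0.32) and Rps27a (0.22) lay above 0. Ube2n, a conjugating enzyme for chains of a non-degradative type, alone was lower by 1.5-fold or more, with levels of 1.51 and 0.80 and log2 ratios of -0.71 and -0.37 by its probes.

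**Figure D5:**
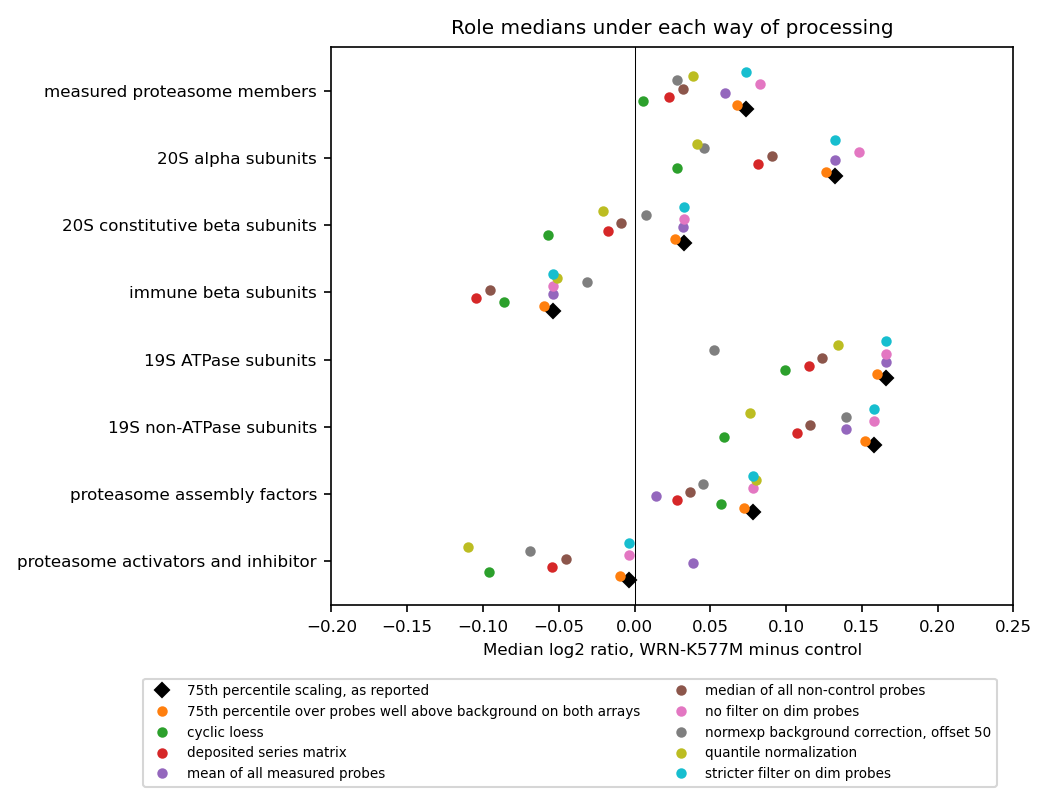
Median log2 ratio (horizontal axis) of all measured members and of each role group under the reported scaling (black diamonds) and the 9 alternatives (coloured circles). The medians of alpha, both 19S groups and assembly factors stay above 0 and that of the immune subunits stays below 0, while those of the constitutive beta subunits and of the activators fall on both sides.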

How the data were processed

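Total heart RNA of 1 control and 1 WRN-K577M sample was hybridised to 1-colour arrays, and groups follow the genotype in the labels. The authors' spot intensity values came from Feature Extraction (Agilent, version 11.5.1.1), per the file headers. Each processed signal is a background-subtracted and detrended intensity, per the file headers, and other deposited columns mark, as 0 or 1, whether a spot was an outlier, saturated or well above background. The deposited series matrix holds the same intensity times 1 factor per array, 4.12 for the control and 4.86 for WRN-K577M, as checked over all spots.

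Control spots and 257 outlier spots were left out, no spot was saturated, and spots of a probe were averaged. Probes were named through RefSeq accessions in a table of GRCm38.p6, which named 28330 of 55680 probes. The array was designed on mm9, so no position of a probe is given. A gene took its brightest measured probe. The 75th percentile signal was 256 in the control and 210 in WRN-K577M. The number of arrays limits the precision.

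With 1 array per group there is no test, and counts past a fold are set beside the same share of all measured genes. Members, gene lists and tests were chosen with earlier results of these data known. The rule for named genes covers all members, and in related lists the 4 with the largest absolute ratio and direct regulators; Sem1, Mafg and some other genes with smaller ratios were named after their values were seen. Some genes of the related lists are not reported here by name. Alternatives were normexp (offset 50, on the median spot signal because the mean is not in the columns used), cyclic loess, quantile normalization, scaling to the median or to the 75th percentile of probes detected on both arrays, no filter on dim probes, a filter at 2 below the percentile, the mean of probes and the deposited matrix. The threshold of 2 spot SD replaced one of 1.25-fold that was looked at first, by which 5 members were higher (17.7% of all measured genes) and 2 lower (18.4%). Counting was tested on simulated data. Python 3.11.15, numpy 2.4.6, pandas 2.3.3, matplotlib 3.10.9, R 4.3.3 and limma 3.58.1 were used.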

Additional observations from a re-analysis of the deposited data

How the results depend on the processing

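The comparison rests on 1 array per group, so differences between animals are not measured, and signal over background limits the 2 genes that were not measured. The 18 results of the comparison were recomputed under 9 alternatives, and 1 result also under another membership chosen after seeing the data, and 155 of 163 values moved by less than the spot SD of 0.13, or, for counts, by less than 1.5 times. The log2 ratio of Psmb8 minus that of Psmb5, -0.087 as reported, was 0.089 after normexp background correction; the cause was not tested. With no filter on dim probes the count of members at least 1.5-fold higher was 2 in place of 0, and so was that at 2-fold; these were Psma8 and Psmb11, whose signals were not well above background. That setting also moved the median of all genes to 0.12. Members higher by 2 spot SD numbered 10 as reported and 4 with cyclic loess. They numbered 5 with normexp, quantile normalization and the deposited matrix, and 6 with median scaling. The share of all measured genes under these alternatives ran from 19.01% (cyclic loess) to 22.2% (quantile normalization), and was 23.6% as reported. The cause of the lower member counts was not tested. The median of all members ran from 0.0059 with cyclic loess to 0.083 with no filter. Relative to the median of all genes it was 0.053 as reported, -0.022 after normexp and -0.038 with no filter. Members above 0 numbered 24 of 48 with cyclic loess, where 46.0% of all genes lay above 0. No paired analysis was possible because each group has 1 array.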
